A study of Mus musculus with 12 samples.

Results

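The genes described here are those of ion channels and ionotropic receptors best known from neurons, read in blood progenitors. They were taken by symbol from the RefSeq protein-coding genes of mm10 on chromosomes 1 to 19: every symbol that begins with Kcn, Cacn, Gabr, Gria, Grid, Grik or Grin, and every symbol that begins with Scn and a digit. The rule gave 166 of 20665 genes: 92 Kcn, 25 Cacn, 16 Gabr, 14 Scn, 8 Grin, 5 Grik, 3 Gria and 3 Grid. The rule itself uses symbols and no measured value. It took in a few genes that are no channel subunits, among them Grina, which encodes a membrane protein of the TMBIM family, and Grid2ip, which encodes a scaffold that binds a delta receptor. The 7 genes with such symbols on the X chromosome were not included, Gria3 among them.

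Chromatin immunoprecipitation followed by sequencing measured the histone marks H3K27me3 and H3K4me3 in Lin-cKit+ bone marrow cells of C57BL/6 mice, a fraction rich in blood stem and progenitor cells. The KO mice (KO_399 and KO_401) were Mx1Cre+ Ints11 flox/flox, and the WT mice (WT_407 and WT_409) were their littermates. Whether the WT mice carried Mx1Cre or a floxed allele, and the ages of the animals, are not given in the sources used here. Cells of all mice were sorted on day 4 after poly(I:C), which induces interferon and through it the Mx1 promoter that drives Cre. That promoter is active in many cell types, so the deletion of Ints11, the gene of the catalytic subunit of the Integrator complex, is not limited to blood cells. There were 2 mice per genotype, their numbers being read as mice, and each mouse gave 1 library per mark.

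Potassium channels of the Kcn group set the resting voltage of a cell and end its action potentials, sodium channels of the Scn group start action potentials, and calcium channels of the Cacn group turn them into calcium entry. Gria, Grik, Grin and Grid genes encode glutamate receptor subunits of the AMPA, kainate, NMDA and delta classes, and Gabr genes encode subunits of the inhibitory GABA-A receptors. In cells outside the nervous system many neuronal genes are held silent by Polycomb, whose PRC2 complex sets H3K27me3, and by the repressor REST. H3K4me3 marks CpG-rich promoters that are active or poised, and promoters that carry both marks are called bivalent. A few of these channels also have known tasks in blood: Kcnn4 is the calcium-activated potassium channel of red cells and activated T cells, and Kcna3 is the voltage-gated potassium channel of T cells.

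Each library had its own list of peaks. H3K27me3 lists held 6542 and 7653 peaks in KO mice and 11930 and 9838 in WT mice, and covered 15.2 and 23.1 Mb in KO_399 and KO_401 against 34.5 and 31.5 Mb in WT_407 and WT_409. The H3K4me3 lists held 25090 to 27676 peaks over 36.7 to 44.5 Mb, and KO_399 had the longest. Read totals were not in the files. Genome-wide background at peak calling was 3.30 and 3.67 reads per position in the KO mice and 3.09 and 3.15 in the WT mice for H3K27me3. It scales with depth, but whether it came from the library itself or from input is not known. For H3K4me3 the background was 2.65 and 1.93 in the KO mice and 2.23 and 1.94 in the WT mice. KO_399 thus had the highest background for H3K4me3 and the shortest coverage for H3K27me3. H3K4me3 lay within 2 kb of an end of 11 of 13 progenitor genes in all 4 mice. For 16 neuron markers that count was 5, while 12 had H3K27me3 in all 4. WT_409 stood apart by H3K4me3 at 8 of 8 B cell markers and 7 of 7 erythroid markers in the gene table, against 4 to 6 B cell and 2 erythroid markers in each of the other mice. In bulk cells a smaller number of cells with a mark and less of the mark in each cell cannot be told apart.

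The measure used below is the number of bases covered by peaks within 5 kb of either end of a gene, which is at most 20000 bp and less for genes shorter than the windows. Peaks of other genes can lie in it: 55 of the 166 genes had an end of another protein-coding gene inside the window, and 10 shared a window with each other, among them Gabra4 with Gabrb1, Cacng6 with Cacng8, Kcnj14 with Grin2d, and Scn2b with Scn4b.

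Promoters of 5 genes show the kinds of start found, from 250 bases before the start site to 50 after, written 5′ to 3′ on the strand of the gene, with every CpG in capitals because the marks are set beside CpG content below. They are RefSeq sequences of GRCm38.p6, the assembly of mm10, and the genes were picked after their values were seen. Grin1, at chr2:25319138-25319437 on the minus strand, had H3K27me3 over the start in all 4 mice and no H3K4me3, with 33 CpG. Cacnb4, at chr2:52676094-52676393 on the minus strand, had both marks over the start in all 4 mice, with 40 CpG. Kcnj2, at chr11:111065914-111066213 on the plus strand, had H3K4me3 alone in all 4 mice, with 18 CpG. Gabra2, at chr5:71095800-71096099 on the minus strand, had H3K27me3 in both WT mice and in neither KO mouse, with 25 CpG. Scn2a, at chr2:65668436-65668735 on the plus strand, had neither mark over the start in any mouse, with 9 CpG. Where a gene has several starts, the 1 with the most CpG is shown.
Grin1: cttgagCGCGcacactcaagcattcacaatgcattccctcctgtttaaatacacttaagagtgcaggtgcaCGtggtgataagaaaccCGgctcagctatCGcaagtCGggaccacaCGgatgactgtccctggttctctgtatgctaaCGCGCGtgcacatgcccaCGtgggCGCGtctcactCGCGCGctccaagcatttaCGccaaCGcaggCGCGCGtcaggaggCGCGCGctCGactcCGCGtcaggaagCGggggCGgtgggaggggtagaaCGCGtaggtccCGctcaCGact
Cacnb4: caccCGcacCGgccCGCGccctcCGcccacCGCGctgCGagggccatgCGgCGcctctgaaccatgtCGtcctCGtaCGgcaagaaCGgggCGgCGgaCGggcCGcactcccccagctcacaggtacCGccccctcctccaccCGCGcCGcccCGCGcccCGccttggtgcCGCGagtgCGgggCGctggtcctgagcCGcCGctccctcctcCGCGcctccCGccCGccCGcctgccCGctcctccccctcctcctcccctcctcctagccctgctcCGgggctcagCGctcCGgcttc
Kcnj2: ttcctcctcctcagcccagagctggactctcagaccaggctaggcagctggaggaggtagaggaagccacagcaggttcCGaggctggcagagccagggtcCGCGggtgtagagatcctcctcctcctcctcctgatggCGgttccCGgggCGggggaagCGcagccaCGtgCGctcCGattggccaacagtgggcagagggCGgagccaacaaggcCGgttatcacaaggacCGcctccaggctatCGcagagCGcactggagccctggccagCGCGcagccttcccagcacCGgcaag
Gabra2: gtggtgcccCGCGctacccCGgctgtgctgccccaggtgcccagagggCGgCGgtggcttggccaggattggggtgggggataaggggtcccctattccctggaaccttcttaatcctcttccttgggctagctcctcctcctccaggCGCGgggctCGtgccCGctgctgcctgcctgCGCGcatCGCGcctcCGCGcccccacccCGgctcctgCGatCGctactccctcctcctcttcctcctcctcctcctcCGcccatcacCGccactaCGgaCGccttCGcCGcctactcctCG
Scn2a: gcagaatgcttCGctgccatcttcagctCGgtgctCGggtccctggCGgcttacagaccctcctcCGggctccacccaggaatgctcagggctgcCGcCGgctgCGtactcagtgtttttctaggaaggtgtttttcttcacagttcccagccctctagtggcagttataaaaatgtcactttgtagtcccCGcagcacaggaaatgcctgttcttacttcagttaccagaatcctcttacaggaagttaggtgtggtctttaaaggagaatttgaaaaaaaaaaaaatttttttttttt

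H3K27me3 lay at most of these genes in both genotypes. Within 2 kb of an end, 88 of the 166 genes (53.0%) had it in all 4 mice, against 16.7% of all protein-coding genes. None had it in KO mice alone, as for 0% of all genes, and 46 had it in no mouse. H3K4me3 showed the opposite balance, with 46 of 166 (27.7%) marked in all 4 mice against 59.4% of all genes. Channel genes with H3K4me3 in 1 genotype alone numbered 0, where the shares over all genes were 0.3% for KO only and 0.0871% for WT only. Neither mark came within 5 kb of 34 genes (20.5%), against 25.2% of all genes.

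The H3K27me3 coverage of the 166 genes was shorter in the KO mice. Its mean per gene was 2016 and 2980 bp in KO_399 and KO_401, against 3928 and 3622 bp in WT_407 and WT_409. Both KO libraries thus lay under both WT libraries, and the KO mice were farther apart from each other than the WT mice. The group means were 2498 ± 682 bp in KO and 3775 ± 216 bp in WT (SD, n = 2 each), a difference of -1276 bp with a two-sided exact permutation p = 0.333, the smallest that 6 labelings of 4 mice allow. KO coverage was 66.2% of WT at the channel genes and 65.1% over all genes, where the means were 783 ± 205 bp in KO and 1203 ± 18.2 bp in WT (SD, n = 2 each). When each library was cut to the same covered length, its strongest peaks kept, the difference turned to 20.3 bp, with 2101 bp in KO and 2081 bp in WT. At equal total length the KO mice were not lower as a group, but this cut removes by design any difference in total length between the lists. Without KO_399, the mouse with the shortest list, the difference was -794 bp, so that this mouse moved it by more than 1.5 times.

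Gene by gene, 91 of the 166 (54.8%) had less H3K27me3 in both KO mice than in both WT mice, where 19.9% of all genes did, and 0 had more, where 0.00968% of all genes did. Fewer of all genes than of the channel genes carried the mark at all. Among the genes covered within 5 kb in all 4 mice, 71 of 89 channel genes (79.8%) were lower in both KO mice, against 78.7% of 3867 genes, a share near that of the background. The length kept was also alike: a channel gene covered in all 4 mice had a median of 69.2% of its WT length in KO (quartiles 62.3% and 78.1%), and any gene so covered had 70.2% (quartiles 59.5% and 80.1%). At equal covered length per library, 27 channel genes (16.3%) were lower in both KO mice and 10 (6.02%) were higher. Among all genes, marked or not, 6.07% were lower and 2.24% higher, and no share among covered genes was computed for this setting. KO_399 was the shortest of the 4 libraries at 99 of the channel genes (59.6%), and at 21.2% of all genes, most of which had no H3K27me3.

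**Figure D1:**
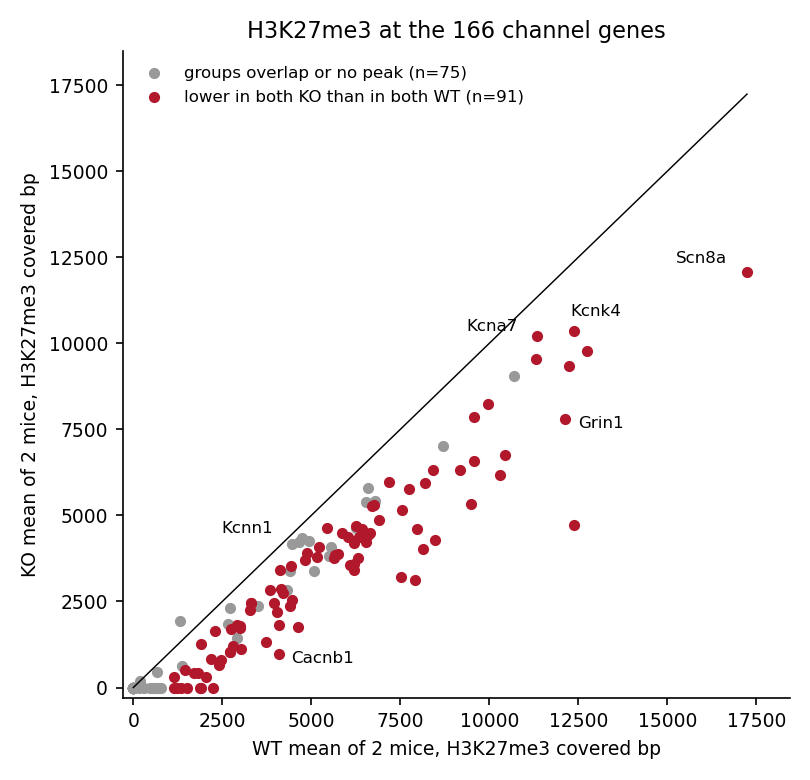
H3K27me3 covered bp within 5 kb of the gene ends for each of the 166 channel genes, the KO mean of 2 mice on the vertical axis and the WT mean of 2 mice on the horizontal axis. Each point is a gene, red where both KO mice lay under both WT mice (91 genes), and the line marks equal lengths. Most genes with a peak lie under the line, and Scn8a has the longest coverage.

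The groups of genes differed in how much of the mark they had. The share lower in both KO mice was 19.9% over all genes, and 78.7% over those covered in all 4 mice. A gene without the mark cannot be lower, so the counts by group below also depend on how many of its genes carried it. Delta receptor genes (Grid) had the most per gene in WT, with 3965 ± 1495 bp in KO and 6765 ± 425 bp in WT (SD, n = 2 mice each, as for all means of gene groups), and all 3 were lower in both KO mice. NMDA receptor genes (Grin) came next with 4433 ± 896 bp in KO and 6323 ± 367 bp in WT, lower in both KO mice at 7 of 8 genes. The eighth was Grina, which had no H3K27me3 at all. Calcium channel genes (Cacn) had 2941 ± 696 bp in KO and 4784 ± 206 bp in WT and were lower in both KO mice at 19 of 25. Kainate receptor genes (Grik) had 3505 ± 1282 bp in KO and 4780 ± 453 bp in WT, but only 2 of 5 were lower in both KO mice, since KO and WT values met or overlapped at the other 3.

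Potassium channel genes (Kcn) had 2526 ± 664 bp in KO and 3674 ± 177 bp in WT, with 47 of 92 lower in both KO mice. Sodium channel genes (Scn) had 2313 ± 621 bp in KO and 3629 ± 341 bp in WT, with 7 of 14 lower. GABA-A receptor genes (Gabr) and AMPA receptor genes (Gria) stood at the low end in every mouse. Gabr genes had 629 ± 365 bp in KO and 1280 ± 169 bp in WT, with 6 of 16 lower, and Gria genes had 482 ± 681 bp in KO and 968 ± 169 bp in WT, with 0 of 3 lower. Over all protein-coding genes the mean in WT, 1203 bp, lay between these 2 groups. No difference between the gene groups was tested, since each has its own genes and the same 4 mice.

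**Figure D2:**
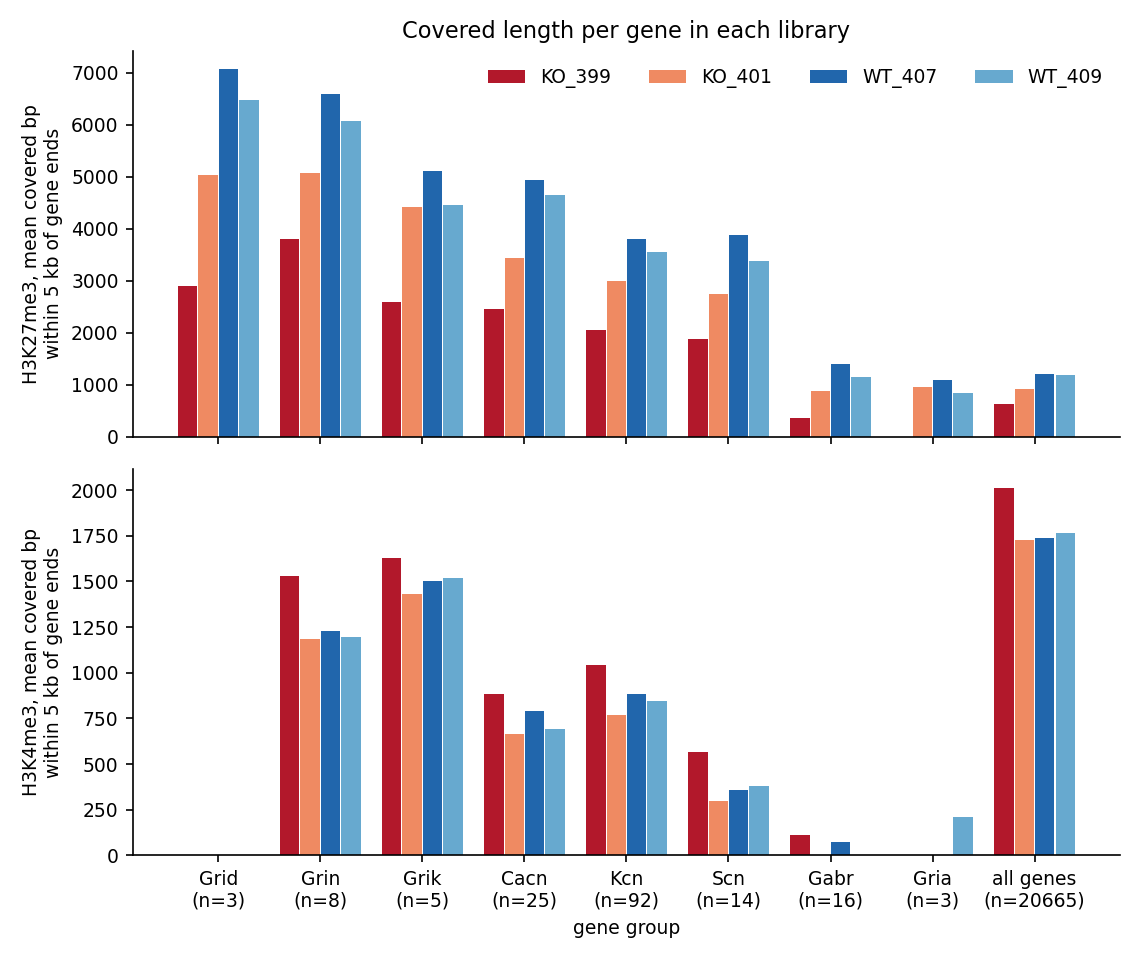
Mean covered bp per gene within 5 kb of the gene ends in each of the 4 libraries, H3K27me3 above and H3K4me3 below, for the 8 groups of channel genes and for all protein-coding genes. Each bar is 1 library, red and orange for KO_399 and KO_401 and dark and light blue for WT_407 and WT_409, and n is the number of genes. For H3K27me3 all groups but Gria have both KO bars under both WT bars, and Grid, Grin, Grik and Cacn stand highest.

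Among potassium channels, the fast-firing Kcnc genes carried the longest H3K27me3 of the subfamilies with at least 3 genes, 6131 ± 1447 bp in KO and 7934 ± 553 bp in WT, with the mark within 2 kb in all 4 mice at 4 of 4. The Kcnq genes, whose channels carry the slow M-type current of neurons and the slow current of heart muscle, had 3678 ± 629 bp in KO and 6526 ± 532 bp in WT, marked in all 4 mice at 5 of 5. The electrically silent modifier subunits Kcng and Kcns were marked within 2 kb in all 4 mice at 4 of 4 and 2 of 3. Short coverage near the gene ends was found for Kcnip, the calcium-binding partners of the Kcnd channels, with 330 ± 467 bp in KO and 1529 ± 114 bp in WT. None was marked within 2 kb of an end in all 4 mice. Inside the genes, a start of Kcnip1 lay under H3K27me3 in all 4 mice, and a start of Kcnip3 in all but KO_401. Kcnip1 had 1376 and 1849 bp of it inside the gene in the KO mice and 3282 and 4676 bp in the WT mice. The small Kcne accessory subunits had 430 ± 152 bp in KO and 748 ± 154 bp in WT, with 0 of 4 marked within 2 kb in all 4 mice. All of this length came from Kcne3, with 1292 and 2151 bp within 5 kb in the KO mice and 2554 and 3426 bp in the WT mice. Inward rectifiers (Kcnj) and tandem-pore channels (Kcnk) were mixed, 7 of 15 and 7 of 14 being marked within 2 kb in all 4 mice.

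Pore and auxiliary subunits of calcium channels both carried the mark. Pore subunits (Cacna1) had 2898 ± 788 bp of H3K27me3 in KO and 4251 ± 155 bp in WT, and 6 of 9 were marked within 2 kb in all 4 mice. Auxiliary subunits had 3803 ± 1106 bp in KO and 5626 ± 175 bp in WT for Cacna2d, 2871 ± 857 bp in KO and 5186 ± 38.0 bp in WT for Cacnb, and 2594 ± 307 bp in KO and 4762 ± 399.4 bp in WT for Cacng. Among them 3 of 4 Cacna2d, 3 of 4 Cacnb and 5 of 8 Cacng genes were marked in all 4 mice.

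The sodium channel Scn8a, the main sodium channel of the axon initial segment of mature neurons, had the longest H3K27me3 of all, 9555 and 14605 bp in the KO mice and 18032 and 16450 bp in the WT mice. It lies at chr15:100869863-101045938, and had peaks at both ends. The strongest peak of each list there lay at the end away from the start site and was 4961 and 11799 bp long in the KO mice and 18259 and 6009 bp in the WT mice. Fignl2 has an end in the same window, so part of this length may belong to it. Both KO mice were lower, and KO_399 was well under KO_401.

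Grin1, which encodes the subunit that every NMDA receptor needs, had 6927 and 8649 bp in the KO mice and 13197 and 11082 bp in the WT mice. Its promoter, printed above, was covered in all 4 mice, so the KO mice had a shorter mark and not an absent one. These lengths take in both gene ends, and the strongest peak of each list lay at the end away from the start. Lrrc26 and Tmem210 have ends in the window. Grin2c, an NMDA subunit of the cerebellum, had 8041 and 10668 bp in the KO mice and 12461 and 12028 bp in the WT mice. Grin2d, a subunit of early development and of interneurons, had 8245 and 10836 bp in the KO mice and 11532 and 11087 bp in the WT mice. In all 3 genes the groups did not overlap, though at Grin2d KO_401 came close to WT_409.

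Kcnk4, a mechanosensitive tandem-pore channel, had 8872 and 11848 bp in the KO mice and 12139 and 12636 bp in the WT mice, in a window that holds ends of Catsperz, Esrra and Gpr137. Kcna7, a potassium channel of muscle, had 9334 and 11119 bp in the KO mice and 11492 and 11185 bp in the WT mice. In both genes KO_399 was the low library and KO_401 lay closer to the WT mice.

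Kcnh3, an ether-a-go-go-like channel of the forebrain, had 7481 and 8973 bp in the KO mice and 9910 and 10000 bp in the WT mice. Grik3, a kainate receptor subunit, had 6920 and 8810 bp in the KO mice and 10000 and 9128 bp in the WT mice. Cacna2d2, an auxiliary subunit whose loss causes the ducky ataxia of mice, had 4936 and 8547 bp in the KO mice and 10762 and 10103 bp in the WT mice. Kcnj4, an inward rectifier, had 8084 and 10000 bp in the KO mice and 11400 and 10000 bp in the WT mice. It was the exception: 11 of the 12 genes with the longest H3K27me3 were lower in both KO mice, and at Kcnj4 KO_401 and WT_409 were equal. Over all genes covered in all 4 mice 78.7% were lower.

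Among the largest differences, Grid2ip, the scaffold of the Purkinje cell delta receptor, had 1636 and 4638 bp in the KO mice and 8730 and 7081 bp in the WT mice. Kcnk15, a tandem-pore channel, had 3683 and 4889 bp in the KO mice and 9324 and 7609 bp in the WT mice. Cacnb3, an auxiliary subunit, had 5396 and 6924 bp in the KO mice and 10922 and 9703 bp in the WT mice. The groups were clearly apart in each. Cacng6 and Cacng8, neighbours on chromosome 7 that share part of their windows, had 3352 and 3050 bp and 4264 and 6384 bp in the KO mice, against 8395 and 6617 bp and 10000 and 8958 bp in the WT mice. Cacng8 encodes a partner of AMPA receptors. Among genes covered in all 4 mice the share of WT length kept in KO ran between 23.5% at Cacnb1, a subunit of skeletal muscle calcium channels, and 93.8% at Kcnn1, a small-conductance calcium-activated potassium channel.

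H3K27me3 within 2 kb was present in both WT mice and absent from both KO mice at 6 genes (3.61%), against 1.88% of all genes. These shares count unmarked genes too. The 6 stood beside 88 channel genes marked in all 4 mice, and over all genes 388 stood beside 3456. Set against genes marked in all 4 mice, WT-only genes were thus fewer among the channel genes. Kcnh7, an ether-a-go-go-related channel, had 0 and 0 bp in the KO mice and 2374 and 1455 bp in the WT mice. Gabra2, the GABA-A subunit shown above, had 0 and 0 bp in the KO mice and 1835 and 1934 bp in the WT mice. Scn1a, the sodium channel of inhibitory neurons that is mutated in Dravet syndrome, had 0 and 0 bp in the KO mice and 1118 and 1181 bp in the WT mice. These marks were short in WT, none being longer than that of Kcnh7 in WT_407.

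Kcnmb2, an auxiliary subunit of the large-conductance calcium-activated channel, had 0 and 0 bp in the KO mice and 1269 and 1756 bp in the WT mice. Kcna5, a channel of heart and smooth muscle, had 0 and 0 bp in the KO mice and 1892 and 764 bp in the WT mice. Kcnv1, a silent modifier subunit, had 0 and 0 bp in the KO mice and 1433 and 1016 bp in the WT mice. None of the 6 genes had H3K4me3 within 5 kb in any mouse. Their peaks were also weak: by the authors' q-values the strongest peak of the 7 genes marked in WT only within 5 kb stood at a median of the 34.8th percentile of the WT_407 list and the 28.1th of the WT_409 list. The 89 genes covered in all 4 mice stood at medians of 72.7 and 78.6 in the KO lists and 86.7 and 80.5 in the WT lists. At equal covered length per library 0 genes were marked in WT only, with the same number of peaks 3 were, and with peaks of a fold of at least 8 there were 11. Without KO_401 the count was 19, and without WT_409 it was 13, though leaving out a mouse could only keep or raise it.

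**Figure D3:**
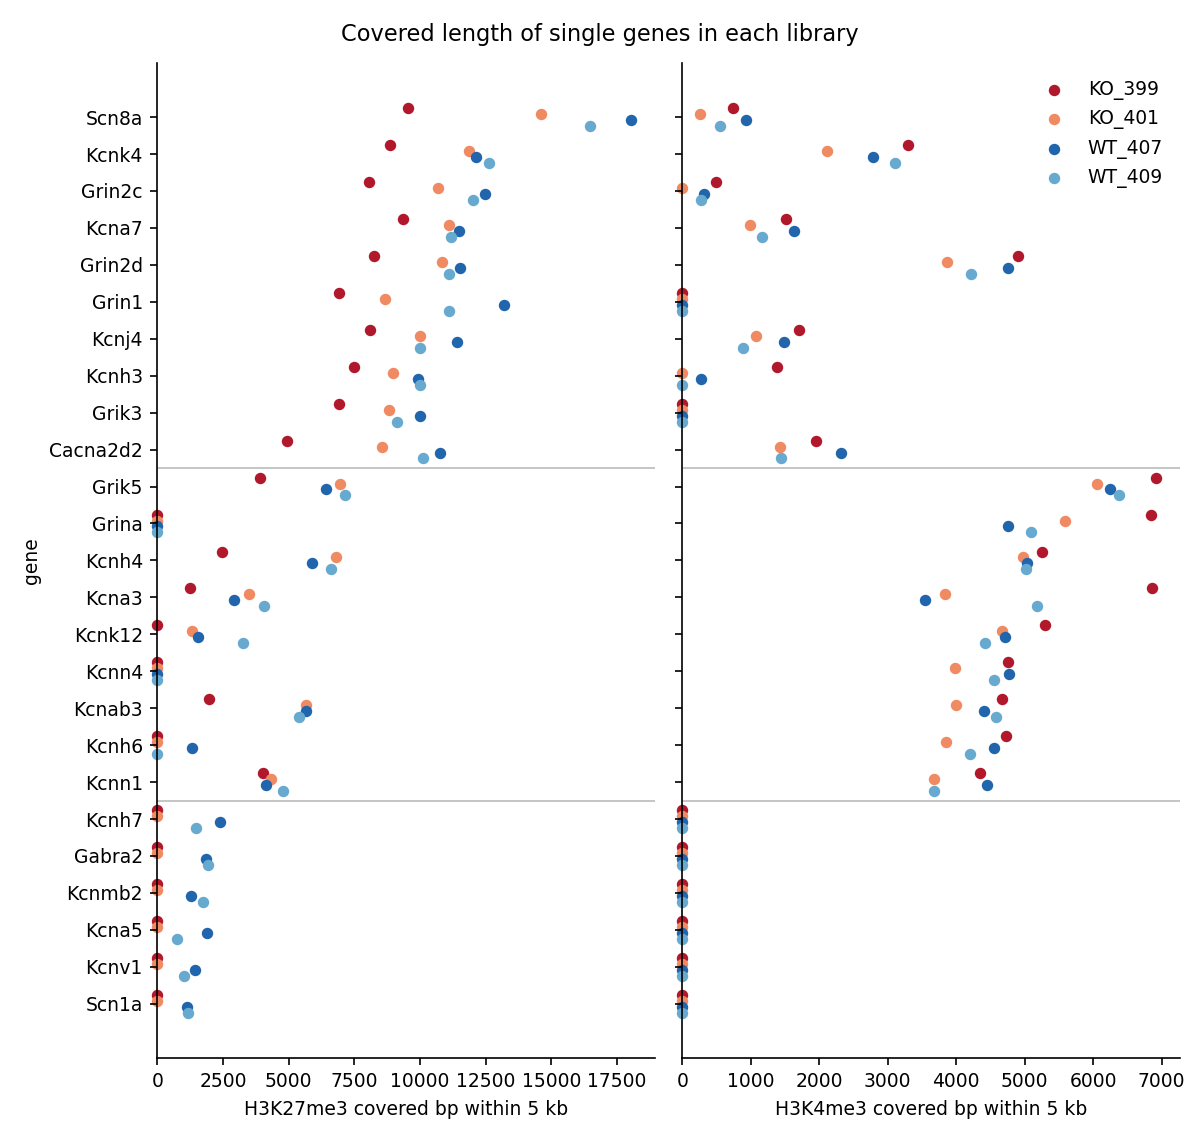
Covered bp within 5 kb of the gene ends in each of the 4 libraries for 10 of the 12 genes with the longest H3K27me3 (top block), the longest H3K4me3 (middle block, Grin2d being in the top block) and H3K27me3 in WT only (bottom block). Each point is 1 library, H3K27me3 on the left and H3K4me3 on the right. In the top block KO_399 is the lowest for H3K27me3 at every gene, and the bottom block has no H3K4me3.

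Genes known as brain prototypes were not all marked. Kcna1, a Shaker-type channel of axons, had 4568 and 6016 bp of H3K27me3 in the KO mice and 7077 and 6420 bp in the WT mice. Grid1, a delta receptor, had 5058 and 7560 bp in the KO mice and 8631 and 8217 bp in the WT mice. Both were lower in both KO mice. Grin2a, the NMDA subunit of adult cortex, had 0 and 3645 bp in the KO mice and 4220 and 3952 bp in the WT mice. Gria2, which sets the calcium block of AMPA receptors, had 0 and 2889 bp in the KO mice and 3262 and 2547 bp in the WT mice. At both of these genes KO_399 alone had no peak, and at Gria2 KO_401 was above WT_409. Scn2a, Scn3a and Gabrr2 had no peak of either mark within 5 kb in any mouse.

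Among other channels picked for their known roles, Kcnh2 and Kcnq1, potassium channels of the heartbeat, carried H3K27me3 in every mouse. Kcnh2 had 5494 and 6055 bp in the KO mice and 8384 and 7098 bp in the WT mice, and Kcnq1 had 3151 and 4373 bp in the KO mice and 6136 and 5155 bp in the WT mice. Kcnk5, an acid-sensitive tandem-pore channel, went the other way at 1 mouse: it had 1608 and 2282 bp in the KO mice and 0 and 2634 bp in the WT mice. The groups overlapped there, while they did not at Kcnh2 and Kcnq1. Kcnj10, the potassium channel of astrocytes, had 2967 and 3867 bp in the KO mice and 7669 and 4718 bp in the WT mice, apart again. Kcne3, an accessory subunit, and Kcnc1 and Cacna1h, channels of fast-spiking and of rhythmic neurons, also carried H3K27me3 in every mouse, as did Kcnk1, a tandem-pore channel with 2273 and 4471 bp in the KO mice and 5794 and 4354 bp in the WT mice, where the groups overlapped.

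H3K4me3 coverage of the channel genes did not separate the genotypes. Its mean per gene was 891 and 651 bp in KO_399 and KO_401, against 749 and 711 bp in WT_407 and WT_409. KO_399 was the highest and KO_401 the lowest of the 4, so the groups overlapped. The means were 771 ± 170 bp in KO and 730 ± 26.7 bp in WT (SD, n = 2 each), a difference of 40.4 bp with a two-sided exact permutation p = 1. The sign depended on KO_399: without it the difference was -79.6 bp, and at equal covered length per library it was -43.9 bp. KO_399 had the longest H3K4me3 at 48 of the channel genes (28.9%) and at 49.6% of all genes, and it also had the most background reads for this mark, whose part in the result was not tested.

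Few genes had H3K4me3 groups that did not overlap. In both KO mice 5 of 166 (3.01%) had more than in both WT mice, against 16% of all genes, and 2 (1.2%) had less, against 2.55% of all genes. Counting only genes covered in all 4 mice, 4 of 53 (7.55%) had more, against 24.3% of 13083 genes. The count of 5 became 49 without KO_401, 21 without WT_407 and 13 without WT_409, though leaving out a mouse could only keep or raise it. With the same covered length it was 3. Grina had 6848 and 5593 bp in the KO mice and 4750 and 5089 bp in the WT mice, in a window that also holds an end of Parp10. Kcnab2, a cytoplasmic partner of Kcna channels, had 2068 and 2171 bp in the KO mice and 1844 and 2000 bp in the WT mice. Cacnb2, an auxiliary subunit of the heart calcium channel, had 2404 and 2201 bp in the KO mice and 2152 and 2183 bp in the WT mice. The groups lay close together at Cacnb2 and Kcnab2.

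Kcne1, the accessory subunit of Kcnq1, had 371 and 274 bp in the KO mice and 225 and 0 bp in the WT mice. Kcnh5 had 687 and 627 bp in the KO mice and 533 and 573 bp in the WT mice. Of the 2 genes with less, Grik4, a kainate receptor subunit, had 1210 and 1081 bp in the KO mice and 1266 and 1211 bp in the WT mice. The nearest KO and WT values lay 1 bp apart at Grik4, and these differences were small beside the length of a typical H3K4me3 peak.

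Long coverage near a channel gene often came with a neighbour, for both marks. Of the 12 genes with the longest H3K27me3, 10 had an end of another gene in the window, and of the 10 genes with the longest H3K4me3, 7 did. Those 7 were Grik5 near Zfp574, Grina, Kcnh4 near Hcrt and Rab5c, Grin2d near Grwd1 and Kdelr1, Kcnab3 near Cntrob and Trappc1, Kcnh6 near Ace3 and Dcaf7, and Kcnn1 near Arrdc2 and Ccdc124. Over all channel genes with H3K4me3 in all 4 mice within 5 kb, 28 of 53 had such a neighbour, and of those with no H3K4me3, 19 of 95 did. Grik5 had the longest, 6920 and 6064 bp in the KO mice and 6243 and 6378 bp in the WT mice.

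The 3 without a neighbour were Kcna3, Kcnk12 and Kcnn4. Kcna3 had 6866 and 3840 bp of H3K4me3 in the KO mice and 3546 and 5176 bp in the WT mice, with H3K27me3 of 1237 and 3497 bp in the KO mice and 2930 and 4069 bp in the WT mice. Kcnn4 had 4762 and 3978 bp in the KO mice and 4768 and 4555 bp in the WT mice and no H3K27me3. Kcnk12, a silent tandem-pore subunit, had 5304 and 4666 bp in the KO mice and 4708 and 4425 bp in the WT mice. The groups overlapped at all 3, and at Kcna3 KO_399 was longer than the next library by 1690 bp. WT_409, the mouse with H3K4me3 at every B cell marker, came second there, and the part of other cell types was not tested.

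H3K4me3 in all 4 mice with no H3K27me3 within 5 kb in any was found at 7 genes: Cacnb2, Grina, Kcne2, Kcnj2, Kcnk6, Kcnn4 and Scn4a. Kcnj2, the inward rectifier whose promoter is shown above, had 4326 and 3455 bp in the KO mice and 3483 and 3314 bp in the WT mice, as 1 peak over its start. Kcnk6, a tandem-pore channel, had 1984 and 1735 bp in the KO mice and 1970 and 1746 bp in the WT mice. The groups overlapped at both.

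Of the 8 largest excesses of H3K4me3 in 1 library over the next, 7 were in KO_399 (Kcna3, Grina, Kcnh3, Cacna2d1, Scn2b, Kcnq3 and Kcnj2) and that of Scn4b was in WT_409. Cacna2d1 had 1052 and 0 bp in the KO mice and 0 and 0 bp in the WT mice, and Kcnq3 had 907 and 0 bp in the KO mice and 0 and 0 bp in the WT mice. Scn4b had 725 and 424 bp in the KO mice and 560 and 1618 bp in the WT mice. KO_399 alone had H3K4me3 at 6 genes (Cacna2d1, Gabrr3, Kcnc1, Kcnq3, Kcnt1 and Scn3b), WT_409 alone at 2 (Gria2 and Kcnj15), and KO_401 and WT_407 alone at 0.

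Both marks within 2 kb of the same gene end were found at 45 and 39 of the channel genes in the KO mice and at 43 and 37 in the WT mice. The genotypes overlapped in this count, and 30 genes (18.1%) had both marks in all 4 mice, against 9% of all genes. More of the channel genes carried H3K27me3, however. Among genes with H3K27me3 within 2 kb in all 4 mice, both marks were found at 30 of 88 channel genes. Over all genes they were found at 1859 of 3456, a larger share. Cacnb4, the beta subunit whose mutation gives the lethargic mouse, was among the 30 channel genes. Cacnb4 had 3260 and 5465 bp of H3K27me3 in the KO mice and 6023 and 6663 bp in the WT mice. Its H3K4me3 within 5 kb was 3521 and 3273 bp in the KO mice and 3661 and 3398 bp in the WT mice. Within 2 kb of its ends only 1006 and 781 bp lay in the KO mice and 1208 and 815 bp in the WT mice. The strongest H3K4me3 peak of each list lay at the end away from its start, by the near end of Arl5a. Kcnq5, a channel of the M-type current, had 1146 and 2543 bp of H3K27me3 in the KO mice and 2225 and 3111 bp in the WT mice, with H3K4me3 of 3369 and 2239 bp in the KO mice and 2638 and 2240 bp in the WT mice. At Cacnb4 H3K27me3 alone separated the genotypes, and at Kcnq5 neither mark did.

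By class within 2 kb of either end, genes with H3K27me3 alone numbered 44 and 61 in the KO mice and 69 and 71 in the WT mice. Genes with H3K4me3 alone numbered 13 and 8 in the KO mice and 8 and 7 in the WT mice, and genes with neither numbered 62 and 55 in the KO mice and 42 and 47 in the WT mice. The class with neither mark was thus larger in both KO mice, and the class with H3K27me3 alone smaller. Over all genes the shares went the same way, with 31.7% and 31.6% having neither in the KO mice and 29.9% and 30.5% in the WT mice, and 4.72% and 7.47% having H3K27me3 alone in the KO mice and 8.19% and 8.38% in the WT mice. No Grid gene had H3K4me3 in any mouse, and 0 of 16 Gabr and 0 of 3 Gria genes had it in all 4 mice.

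RefSeq start sites could be placed for 120 of the 166 genes, 160 starts in all, 27 genes having more than 1. H3K27me3 covered a start at 52 and 71 of these genes in the KO mice (43.3% and 59.2%) and at 81 and 81 in the WT mice (67.5% each). Over all 16457 genes with a start the shares were 12.6% and 15.8% in the KO mice and 17.6% and 18.04% in the WT mice. H3K4me3 covered a start at 32 and 26 channel genes in the KO mice and at 29 and 26 in the WT mice, shares of 21.7% to 26.7%, against 57.8% to 60.2% over all genes. Away from the start the mark thinned in every mouse: at 2000 bp downstream H3K27me3 lay at 23.3% and 35.0% of the channel genes in the KO mice and at 44.2% and 40.8% in the WT mice, and at 5000 bp downstream at 0% and 4.17% in the KO mice and 9.17% and 7.5% in the WT mice.

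**Figure D4:**
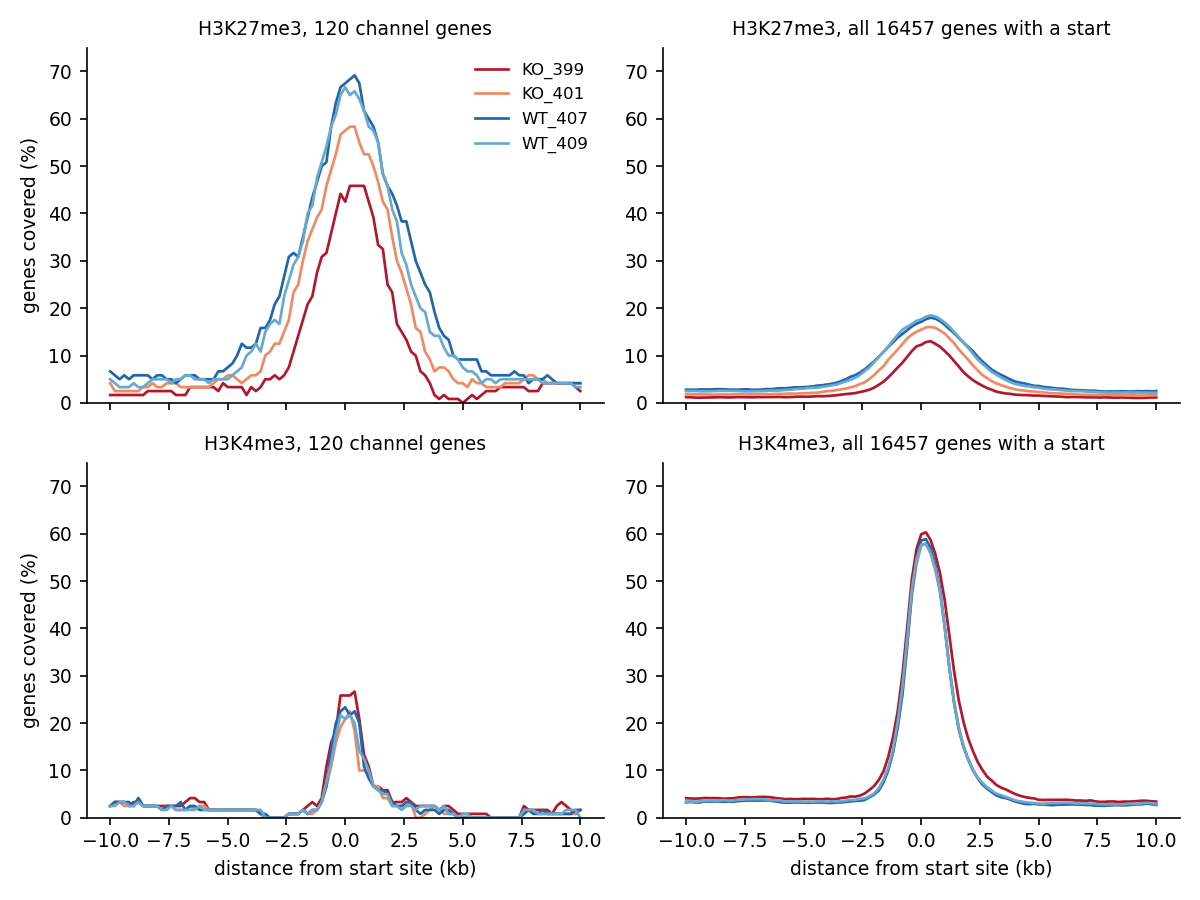
Share of genes, in percent, with a listed peak at each distance from the start site in kb, for the 120 channel genes with a RefSeq start (left) and all 16457 genes with one (right), H3K27me3 above and H3K4me3 below. Each line is 1 library. Both KO lines lie under the WT lines for H3K27me3 around the start on the left and on the right, and the H3K4me3 lines of the 4 mice lie close together.

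CpG content of the promoter went with both marks. The channel promoters had a median of 14 CpG in 300 bases, against 15 over all genes, taking the start with the most CpG in each gene. Of channel genes with at least 15 CpG, H3K27me3 covered a start in both mice at 38 of 60 (63.3%) in KO and 51 of 60 (85.0%) in WT, against 18.5% and 23.0% of all genes with such promoters. With 5 to 14 CpG it did so at 10 of 38 (26.3%) in KO and 21 of 38 (55.3%) in WT, against 11.9% and 18.7% of all genes. With 0 to 4 CpG the counts were 2 of 22 (9.09%) in KO and 6 of 22 (27.3%) in WT, against 1.15% and 2.30%. H3K4me3 at promoters with at least 15 CpG was found at 20 of 60 (33.3%) in KO and 19 of 60 (31.7%) in WT, against 88.1% and 88.0% of all genes. These are descriptions over genes, with no test, and genes are no replicates.

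**Figure D5:**
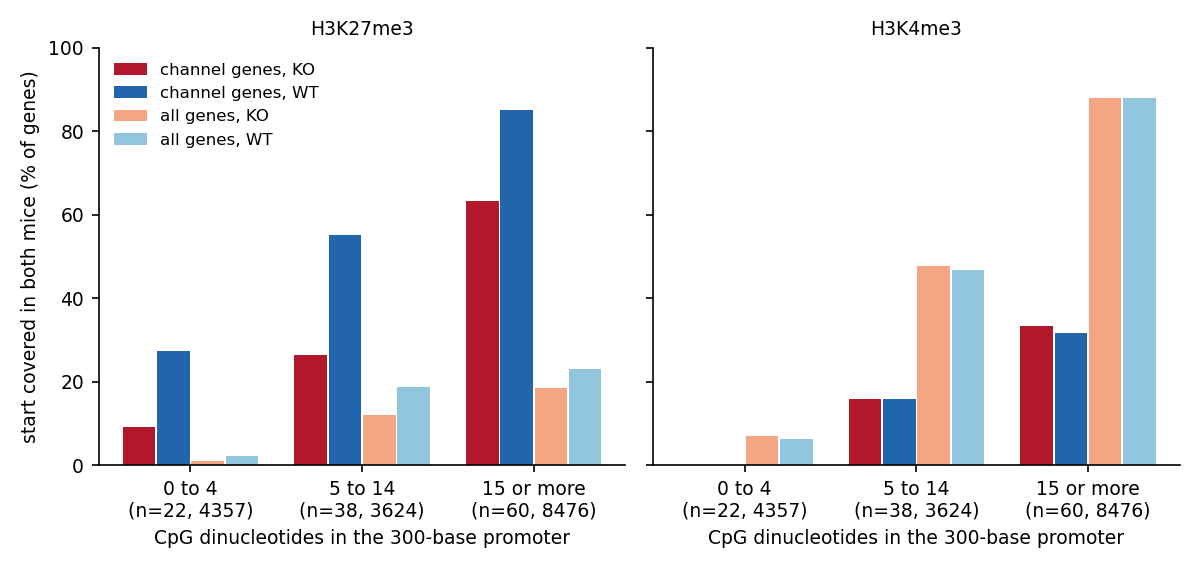
Share of genes, in percent, whose start is covered in both mice of a genotype, by the number of CpG dinucleotides in the 300-base promoter, H3K27me3 on the left and H3K4me3 on the right. Dark bars are the 120 channel genes and pale bars all 16457 genes, red for KO and blue for WT, and n gives the channel genes and then all genes of a bin. For H3K27me3 the channel genes stand above all genes in every bin, and for H3K4me3 they stand below.

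Sorted by marks at the start in both WT mice, 58 channel genes with H3K27me3 alone had a median of 18 CpG, 20 genes with both marks had 27, 5 genes with H3K4me3 alone had 20, and 37 genes with neither had 6. By gene group the median was 34 CpG for Grik (4 genes with a start), 29 for Cacn (19 genes) and 21.5 for Gria (2 genes). It was 19 for Grid (1 gene, Grid2ip), 17 for Grin (4 genes) and 14 for Kcn (68 genes). The lowest medians were 10 for Gabr (12 genes) and 7 for Scn (10 genes). Grid and Grin had the longest H3K27me3 coverage in WT and Gria the shortest. That coverage was averaged over all genes of a group, so these orders rest on different genes. A search for the left and right parts of the REST site on both strands found TTCAGCACC in 1 of 120 channel promoters (0.833%, Kcnh6) and in 0.480% of all promoters, and GGACAGCGC in 2 (1.67%, Gria2 and Kcnj4) and in 0.662% of all. No channel promoter held both parts, and sites outside these windows were not searched.

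Farther inside the genes, more than 5 kb from either end, H3K27me3 covered 86645 and 132556 bp in all over 29 and 33 channel genes in the KO mice, and 259070 and 181884 bp over 53 and 44 genes in the WT mice. H3K4me3 there covered 49477 and 32203 bp in the KO mice and 38417 and 35605 bp in the WT mice. Cacna1a, the pore of the calcium channel that drives transmitter release, had 8192 and 11754 bp of internal H3K27me3 in the KO mice and 19414 and 15327 bp in the WT mice. Cacna1d, a pore subunit of hair cells and the sinus node, had no peak of either mark near its gene ends, but has an internal RefSeq start with 63 CpG, the most of all channel promoters. The start base itself lay under H3K27me3 in WT_407 alone and under H3K4me3 in no mouse. Within 1 kb of it H3K27me3 covered 1614 and 1722 bp in the KO mice and 1905 and 1845 bp in the WT mice, and H3K4me3 covered 1194 and 942 bp in the KO mice and 542 and 815 bp in the WT mice. Over the whole inner part of the gene H3K27me3 covered 3233 and 5293 bp in the KO mice and 5513 and 6038 bp in the WT mice, and H3K4me3 5968 and 4393 bp in the KO mice and 5220 and 5617 bp in the WT mice. Kcna2, an axonal potassium channel listed with no peak near its ends, had 3476 and 4421 bp of internal H3K27me3 in the KO mice and 6510 and 5408 bp in the WT mice. A gene without a peak near its ends was thus not always a gene without the mark.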

How the data were processed

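H3K27me3 and H3K4me3 peaks of Lin-cKit+ bone marrow cells from 2 KO and 2 WT mice were used, 1 list per library, called per library by the authors. Per the submitters' processing notes, reads on mm10 went through Trim Galore, FastQC, Bowtie2, MACS2, deepTools and SAMtools, in versions that are not named. Each deposited list gives a score, a fold (the ratio of pileup to background) and −log10 p-values and q-values, which are the authors' values per peak and served only to rank or filter within a list. No deposited fold was under 5. Numbers are missing from the peak names, 24.8% to 36.5% being listed for H3K27me3 and 66.7% to 78.0% for H3K4me3, so that an unlisted site may have held a weaker peak. The sources used here do not say whether input was the control, and the 4 input samples are not analysed here.

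Background reads per position were solved from the deposited fold and −log10 p of peaks with −log10 p under 300, and a whole pileup fitted 100% of them within 0.001. Since the lists hold no read totals, no counting interval was computed. Gene spans came from a RefSeq table of GRCm38.p6, without strand. Bases covered within 5 kb of either end, and presence (at least 1 bp) within 2 kb, were computed per library with Python 3.11.15, numpy 2.4.6, pandas 2.3.3, scipy 1.17.1 and matplotlib 3.10.9, and the coverage code was tested on simulated intervals. The mean per gene was compared by an exact permutation test over the 4 mice, which cannot give a p below 0.333. A gene was called lower or higher when both KO values lay beyond both WT values, and the share of all genes called so is the background.

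The members and lists were chosen with earlier results of these data known. Genes named are the 12 longest for H3K27me3, the 10 longest for H3K4me3, the 8 largest differences among called genes, those marked in 1 genotype only, the 8 largest excesses in 1 library, and a list of blood and brain prototypes. Some genes that this rule names are not reported here. Lists of progenitor, neuron, B cell, erythroid, neutrophil, T and NK, stromal and endothelial genes, of other neuronal channels and of REST corepressors were counted beside them. Start sites, CpG, motifs, peak ranks and gene interiors were added after the values were seen. RefSeq starts were found for 120 of 166 genes. Alternatives were the window, a fold of at least 8, an equal peak number or equal covered length per library, stricter membership, shared windows counted once, at least 200 bp, and leaving out each mouse.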

Additional observations from a re-analysis of the deposited data

How the results depend on the processing

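Of 80 values recomputed under 12 alternatives, 62 were classed as the same, 15 as moved and 3 as turned. For the differences in mean length, the same meant the same sign, whatever the size. For the counts it meant staying near the count reported. At equal covered length per library the H3K27me3 difference was 20.3 bp and that of H3K4me3 was -43.9 bp. So treated, 27 genes had less H3K27me3 in both KO mice, 3 had more H3K4me3, 42 had H3K27me3 in all 4 mice, 0 had it in WT only, and 12 had both marks. With peaks of a fold of at least 8 these last 3 counts were 48, 11 and 11. With the same number of peaks 3 genes had H3K27me3 in WT only, and over the whole gene span 47 had both marks. Leaving out each mouse gave H3K27me3 differences between -1758 and -794 bp, and H3K4me3 differences between -79.6 (without KO_399) and 160 bp. It gave 91 to 111 genes with less H3K27me3, 5 to 49 with more H3K4me3, 88 to 101 with H3K27me3 in all remaining mice, 7 to 19 with it in WT only, and 31 to 34 with both marks. With fewer mice to satisfy, these counts could only stay equal or rise. The causes were not tested. Counting shared windows once left 161 genes and the stricter reading of the symbols 163. No paired analysis was possible because the KO and WT mice share no numbers. With 2 mice per genotype no test could pass 0.05, and peaks under a fold of 5 were not listed, so that a gene at 0 bp may hold a weaker mark. The narrow layout breaks broad H3K27me3 domains into pieces. The genotype and the total length of the lists cannot be told apart.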

Other observations

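Other channels and receptors of neurons outside the 8 symbol groups, among them the Hcn pacemaker, nicotinic acetylcholine, glycine, metabotropic glutamate, Asic and Trpc genes, had a like pattern. Their mean H3K27me3 within 5 kb was 2130 ± 605 bp in KO and 3421 ± 349 bp in WT (SD, n = 2 mice each) over 44 genes. Of the 44, 25 were lower in both KO mice, against 19.9% of all genes, most of which had no H3K27me3. Among all genes covered in all 4 mice 78.7% were lower, a share that was not computed for these 44 genes. Within 2 kb, 22 of them had H3K27me3 in all 4 mice, 4 in WT only and 0 in KO only, 10 had H3K4me3 in all 4 mice and 8 had both marks. The genes of REST and its corepressors showed the opposite state, with H3K4me3 at 12 of 12 and H3K27me3 at 1 of 12 in all 4 mice. H3K4me3 lay at 8 of 8 neutrophil genes in all 4 mice. Of 8 T and NK cell genes it lay at 5 and 4 in the KO mice and at 3 and 3 in the WT mice, and of 8 stromal and endothelial genes at 8 and 5 in the KO mice and at 5 and 3 in the WT mice.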
